A study of Mus musculus with 9 samples.

Results

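Transcripts of 9 genes for the giant and filament-linking proteins of the sarcomere were followed while mouse myoblasts differentiated. The genes were chosen by name: Ttn (titin), Neb (nebulin), the myomesins Myom1, Myom2 and Myom3, the myosin-binding proteins Mybpc1, Mybpc2 and Mybph, and Obsl1 (obscurin-like 1). They are 9 of 47729 genes in the count table, and all 9 were among the 13324 genes with enough counts to be tested. The cells were C2C12, an established line of mouse myoblasts, grown in 10% fetal bovine serum and switched to 5% horse serum to form myotubes. The groups were a control population that received a guide RNA with no target (WT), a population edited with CRISPR-Cas9 at the clock gene Per1 (Per1KO) and one edited at Per2 (Per2KO). Each was sampled on day 0, before the switch, and on days 3 and 5 after it. There was 1 library for each population and day, 9 in all, and no combination of population and day was repeated. Whether a population was a single clone or a pool of edited cells is not given in the sources used here.

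A sarcomere is the contractile unit of striated muscle, built from thin filaments of actin anchored at the Z-disc and thick filaments of myosin linked to each other at the M-band. Titin runs from the Z-disc to the M-band and acts as a scaffold and a molecular spring, and nebulin runs along the thin filament and stabilises it. Myomesins cross-link neighbouring thick filaments at the M-band, obscurin-like 1 binds titin and myomesin there, and the myosin-binding proteins C and H attach to the thick filament and modulate its cross-bridges. These genes are switched on as myoblasts leave the cell cycle and assemble myofibrils.

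The 3 WT libraries held between 5020385 and 6773320 counts and the 6 knockout libraries between 41997763 and 48051824, a mean ratio of 7.82, and a lane suffix stands only in the WT titles. Depth, lane and genotype therefore cannot be told apart. Levels are given in CPM, which scales each gene's count to a common library size after TMM normalisation, and 3 counts, taken as the floor for a count of 0, came to 0.423 to 0.659 CPM in WT libraries and 0.0590 to 0.0730 CPM in knockout libraries. Intervals in brackets are exact 95% intervals that cover counting error only. Per1 stood at 35.5, 33.7 and 30.96 CPM in WT on days 0, 3 and 5, at 20.8, 32.4 and 28.9 CPM in Per1KO, and at 16.4, 30.4 and 32.9 CPM in Per2KO. Per2 stood at 9.73, 11.5 and 20.4 CPM in WT, at 6.58, 9.43 and 10.6 CPM in Per1KO, and at 3.50, 9.11 and 8.37 CPM in Per2KO, where it fell (log2 fold change -1.02, adjusted p = 0.0230). Where in each gene the edit lies is not given in the sources used here, so these gene counts do not check the labels, and the groups are called as labelled. Although whole muscle is given as the tissue in the labels, markers of endothelial and immune cells were scarce. Of 5 endothelial and 5 immune markers, only Vwf (at most 1.09 CPM) and Cd68 (at most 1.98 CPM) reached 1 CPM in any library, and of 5 adipocyte markers Adipoq and Cidec had 0 counts and Plin1 and Fabp4 stayed below 1 CPM. The fifth, Lpl, stood at 33.7, 51.0 and 94.6 CPM in WT on days 0, 3 and 5, at 42.9, 143 and 122 CPM in Per1KO, and at 61.7, 171 and 155 CPM in Per2KO, above WT on every day. Of the 5 fibroblast markers Dcn reached 813 CPM and the summed level ran from 78.8 to 781 CPM in WT and from 16.2 to 831 CPM in the knockouts. Among them Dpt stood at 78.5 and 142 CPM in WT on days 3 and 5 and at 3.09 to 6.15 CPM in the knockouts, and Lum at 6.38 and 12.3 CPM in WT and at no more than 0.438 CPM in the knockouts. Dcn went the other way on these days, at 539 and 602 CPM in WT, 678 and 727 CPM in Per1KO, and 710 and 813 CPM in Per2KO. On day 0 Dcn stood at 51.5 CPM in WT, 6.56 CPM in Per1KO and 13.7 CPM in Per2KO. The myoblast markers summed to 3337 to 5128 CPM in WT and to 1748 to 4929 CPM in the knockouts. Smooth muscle markers summed to 158 to 213 CPM in WT and to 82.3 to 108 CPM in the knockouts. The sums of Schwann or nerve markers were 39.5 to 197 CPM in WT and 53.8 to 193 CPM in the knockouts, with Tubb3 at up to 197 CPM. Those of cardiomyocyte markers were 125 to 2084 CPM in WT and 29.2 to 1865 CPM in the knockouts, with Tnnt2 at up to 2072 CPM. The part of these other transcripts in the results below was not tested. With RNA from whole cultures, fewer cells of a type and less RNA per cell cannot be told apart.

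Promoters are shown for Ttn, which was above WT in the knockouts during differentiation, for the protein C pair Mybpc1 and Mybpc2, whose balance differed between the populations, and for Mybph, whose rise differed most between knockouts and WT among the members called. Sequences are from RefSeq on build GRCm38.p6, and 7 of the 9 members had an entry. Each line gives the 250 bases before the annotated start, read 5′ to 3′ on the gene's strand, with every E-box (CANNTG, the core bound by basic helix-loop-helix factors such as the myogenic factors) in capitals.
Ttn promoter, chr2:76982548-76982797, reverse strand: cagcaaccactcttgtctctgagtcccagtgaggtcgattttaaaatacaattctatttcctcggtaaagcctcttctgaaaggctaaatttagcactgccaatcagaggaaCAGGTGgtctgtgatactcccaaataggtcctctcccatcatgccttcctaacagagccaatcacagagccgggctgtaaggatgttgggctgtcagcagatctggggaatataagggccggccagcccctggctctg
Mybpc1 promoter, chr10:88605153-88605402, reverse strand: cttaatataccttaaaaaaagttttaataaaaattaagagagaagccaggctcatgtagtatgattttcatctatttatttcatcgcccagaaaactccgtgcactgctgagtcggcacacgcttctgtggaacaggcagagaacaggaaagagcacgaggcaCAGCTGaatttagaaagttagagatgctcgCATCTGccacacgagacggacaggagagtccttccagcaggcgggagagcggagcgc
Mybpc2 promoter, chr7:44524670-44524919, reverse strand: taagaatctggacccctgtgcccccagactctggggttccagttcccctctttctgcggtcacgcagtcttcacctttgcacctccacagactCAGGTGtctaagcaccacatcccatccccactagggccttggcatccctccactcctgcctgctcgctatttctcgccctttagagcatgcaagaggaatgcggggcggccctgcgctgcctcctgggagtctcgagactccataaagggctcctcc
Mybph promoter, chr1:134193198-134193447, forward strand: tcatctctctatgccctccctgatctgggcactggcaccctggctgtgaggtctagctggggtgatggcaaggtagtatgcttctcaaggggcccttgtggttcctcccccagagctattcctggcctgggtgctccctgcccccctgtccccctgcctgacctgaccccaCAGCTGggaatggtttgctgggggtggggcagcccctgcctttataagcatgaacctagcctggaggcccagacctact

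Motifs were searched on both strands of the 300 bases from 250 before to 50 after the start. An E-box was present in 7 of the 7 member promoters and in 72.3% of 32851 promoters of the same length. The E-box form CAGCTG, which counts among the CANNTG matches, was present in 3 of 7 (Mybpc1, Mybph and Obsl1) and in 16.3% of all promoters. The clock E-box CACGTG, also a CANNTG match, was present in 0 of 7 and in 7.15% of all. A MEF2 motif began 166 bases before the start of Ttn and 35 bases before that of Myom3, and 3.19% of all promoters held one. A CArG box was found in 1 promoter, that of Myom1, 99 bases before a RefSeq start that lies inside the gene as GENCODE annotates it (1.63% of all), and TATAAA in 1, that of Mybph, 39 bases before the start (13.6% of all). The third E-box of Mybpc1 and the second of Mybpc2 lie after the start and outside the printed bases. A match describes letters in this window and not a bound site.

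During differentiation all 9 transcripts were higher on days 3 and 5 than on day 0 in all 3 populations. Against day 0, 9 of 9 passed edgeR's test as higher on day 3 at an adjusted p under 0.05, where 18.1% of all tested genes did, and 9 of 9 on day 5, where 23.2% did. Between days 3 and 5 the estimates of all 9 were positive and 2 passed, Mybpc1 and Mybpc2, against 0.698% of tested genes called higher. The knockouts began from a lower level: on day 0 the 7 members with more than 3 counts in either library were all below WT, with a median log2 difference of -2.61 in Per1KO and -3.34 in Per2KO, while Mybpc1 had 0 counts against 3 and Mybpc2 1 against 0. By day 5 the median log2 difference of all 9 members was -0.35 in Per1KO and -0.71 in Per2KO, beside medians of 0.02 and 0.01 over all tested genes. The 2 knockouts are compared with the same WT libraries, so their differences from WT are not independent of each other.

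**Figure D1:**
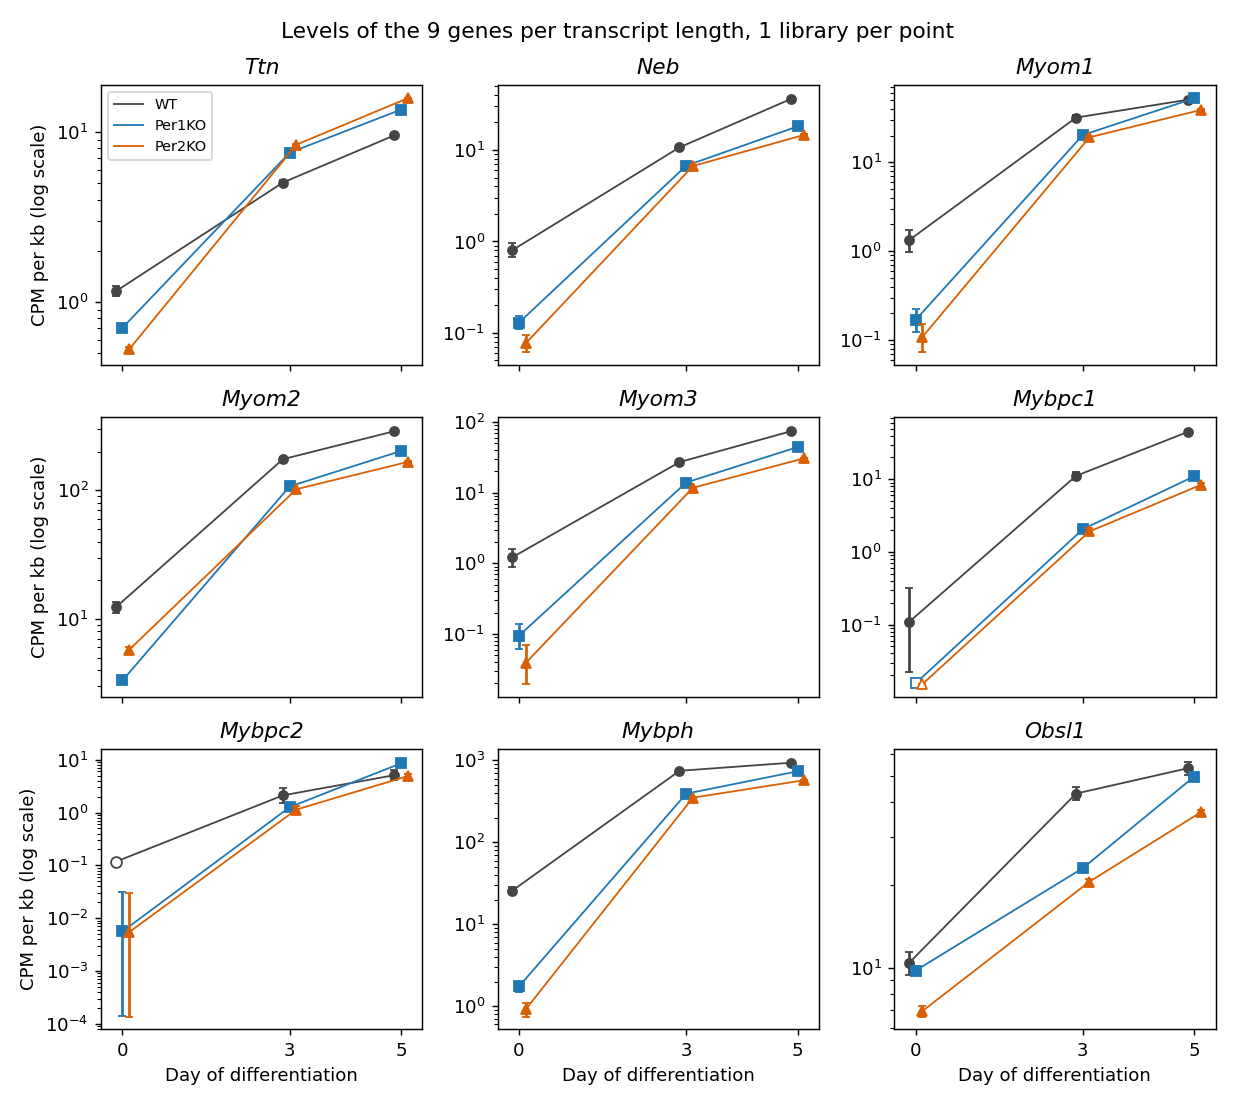
Levels of the 9 genes in CPM per kilobase of the longest annotated transcript (log axis, own scale per panel) against day, 1 library per point, with exact 95% counting intervals. Open symbols mark a count of 0 drawn at the level of 3 counts. Every curve rises from day 0 to day 5, and only the Ttn curves of the knockouts cross above WT on both day 3 and day 5.

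Compared per length, Mybph was the most abundant of the 9 transcripts in 7 libraries and Obsl1 in the other 2, both of knockouts on day 0. On day 5 in WT, Mybph stood at 937 CPM per kb, Myom2 at 289, Myom3 at 73.9, Obsl1 at 53.2, Myom1 at 50.5, Mybpc1 at 44.7, Neb at 36.2, Ttn at 9.55 and Mybpc2 at 5.11 CPM per kb. The counting intervals of Obsl1 (50.4 to 56.1 CPM per kb) and Myom1 (47.8 to 53.3 CPM per kb) overlapped, as did those of Myom1 and Mybpc1 (41.7 to 47.9 CPM per kb), by a narrow margin. With the union of annotated exons as the length, Mybpc1 came before Obsl1, Neb and Myom1. Myom2 was second in all 9 libraries under either length. Summed over the 9 genes, the level went from 53.1 through 1053 to 1499.6 CPM per kb in WT, from 15.9 through 575 to 1138 in Per1KO and from 14.4 through 523 to 890.4 in Per2KO. The sum was highest in WT on each day.

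Ttn encodes titin, the largest known protein, which spans the sarcomere from Z-disc to M-band. It lies at chr2:76703980-76982547 on the reverse strand (GENCODE M21, GRCm38), with a longest annotated transcript of 106.8 kb. Its levels on days 0, 3 and 5 were 123, 538 and 1020.4 CPM in WT, 75.2, 806 and 1446.5 CPM in Per1KO, and 56.1, 898 and 1687 CPM in Per2KO. Both knockouts were thus below WT before differentiation and above it on days 3 and 5. In Per1KO the ratio to WT was 0.610 (0.566 to 0.657) on day 0, 1.498 (1.44 to 1.56) on day 3 and 1.42 (1.38 to 1.46) on day 5. In Per2KO it was 0.455 (0.422 to 0.492), 1.67 (1.61 to 1.73) and 1.65 (1.60 to 1.70).

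Fitted over all 3 days, Ttn had a log2 fold change from WT of 0.06 ± 0.35 (SE; adjusted p = 0.918) in Per1KO and 0.10 ± 0.35 (adjusted p = 0.873) in Per2KO. Fitted without day 0, it was called higher in both, by 0.54 (adjusted p = 0.0365) and 0.73 (adjusted p = 0.0144). Without day 3 the estimates were -0.19 and -0.23 and without day 5 -0.15 and -0.23, and none of these was called. The rise from day 0 to days 3 and 5 was larger in the knockouts than in WT by 1.55 ± 0.26 on the log2 scale (adjusted p = 0.0244). Without Per2KO that difference was 1.26 (adjusted p = 0.179), and without day 3 it was 1.53 (adjusted p = 0.0557). Between single libraries Ttn was 8.28-fold (7.70 to 8.91) higher on day 5 than on day 0 in WT, 19.2-fold (18.6 to 19.9) in Per1KO and 30.1-fold (29.0 to 31.2) in Per2KO. Transcript length was looked at beside this result: the 293 tested protein-coding genes with a longest transcript over 10 kb had a median log2 fold change from WT of 0.10 in Per1KO and 0.13 in Per2KO, and the part of length in the Ttn result was not tested. An antisense gene over 453 bases of Ttn exons, Gm13938, had 0 counts in all 9 libraries.

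Neb, the nebulin gene, lies on the same chromosome at chr2:52136647-52378474 on the reverse strand, with a longest transcript of 22.49 kb. It stood at 18.0, 240.3 and 813 CPM in WT, at 2.92, 151 and 408 CPM in Per1KO, and at 1.73, 150.2 and 329.7 CPM in Per2KO on days 0, 3 and 5. WT was highest on every day, and the gap was widest on day 0. Relative to WT, Neb on day 0 stood at 0.162 (0.126 to 0.207) in Per1KO and 0.0958 (0.0722 to 0.127) in Per2KO, on 144 and 88 counts. On day 5 it was 0.501 (0.484 to 0.520) in Per1KO and 0.405 (0.391 to 0.420) in Per2KO.

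Over the 3 days, Neb fell in Per2KO, with a log2 fold change of -1.71 ± 0.46 (adjusted p = 0.0363). The estimate in Per1KO was -1.44 ± 0.45 (adjusted p = 0.0611) and did not pass by edgeR, while it passed by DESeq2 (-1.52, adjusted p = 0.00233) and by edgeR without day 0 (-0.85, adjusted p = 0.0245). The Per2KO call was lost when only the 6 libraries of the pair were fitted (adjusted p = 0.167), with no filter on low counts (adjusted p = 0.174) and when all libraries were thinned to the smallest total (adjusted p = 0.0679). The rise into days 3 and 5 was larger in the knockouts by 2.06 ± 0.33 (adjusted p = 0.0215).

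The balance of titin to nebulin transcripts differed between the populations within the same days. The ratio of Ttn to Neb counts per length, which does not depend on library scaling, was 1.44 (1.19 to 1.74), 0.472 (0.442 to 0.504) and 0.264 (0.253 to 0.276) in WT on days 0, 3 and 5. It was 5.43 (4.595 to 6.46), 1.12 (1.09 to 1.15) and 0.747 (0.734 to 0.760) in Per1KO. In Per2KO it was 6.83 (5.52 to 8.54), 1.26 (1.23 to 1.29) and 1.08 (1.06 to 1.10). On each day both knockouts lay above WT, with no overlap of the counting intervals, and in all 3 populations the ratio went down from day to day. These ratios have 1 library each and no test.

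**Figure D2:**
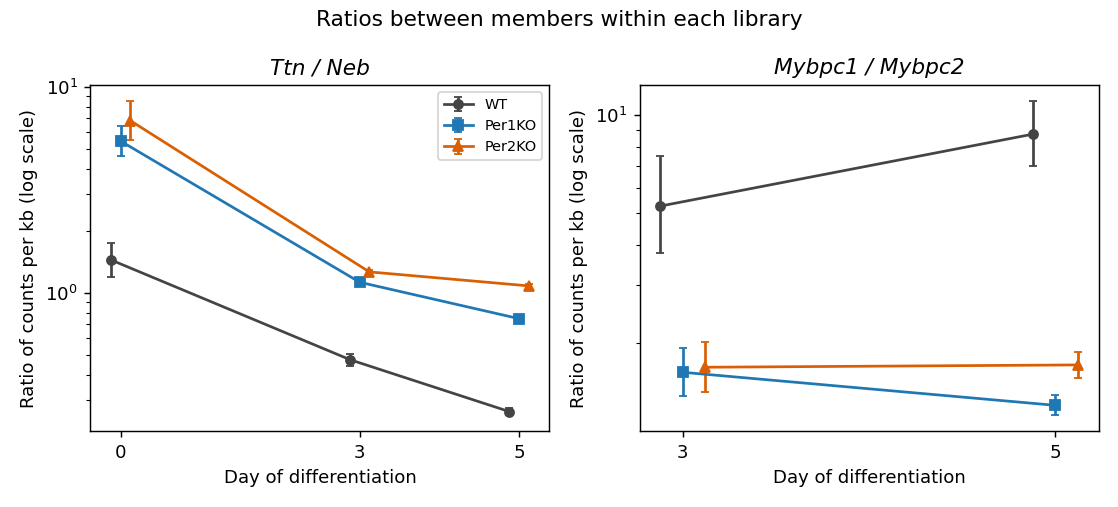
Ratios of counts per kilobase within each library against day (log axes): Ttn to Neb on the left, Mybpc1 to Mybpc2 on days 3 and 5 on the right, with exact 95% counting intervals. The Ttn to Neb ratio of WT goes from 1.44 to 0.264 and stays below both knockouts, and the Mybpc1 to Mybpc2 ratio of WT (5.26 and 8.76) stays above both.

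The 3 myomesin genes lie on different chromosomes. Myom1, at chr17:71002633-71126856, encodes the myomesin found in all striated muscle, and Myom2, at chr8:15057653-15133541, the one typical of fast fibres. Myom3, at chr4:135759715-135815564, encodes the one described in intermediate fibres. All 3 are on the forward strand. Myom2 stood at 62.5, 888 and 1467 CPM in WT on days 0, 3 and 5, at 16.9, 545 and 1029.7 CPM in Per1KO, and at 29.2, 519 and 846 CPM in Per2KO. WT was highest on each day, and on day 0 Per1KO was the lowest of the 3. The ratio to WT on day 0 was 0.270 (0.240 to 0.304) in Per1KO and 0.468 (0.420 to 0.521) in Per2KO, and on days 3 and 5 it lay between 0.576 and 0.702 in both.

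Myom2 was the one myomesin called by edgeR in the fit over all 3 days. It fell in both, with estimates of -0.998 ± 0.25 (log2) in Per1KO (adjusted p = 0.0303) and -0.90 ± 0.25 in Per2KO (adjusted p = 0.0406). With only the 6 libraries of the pair in the fit, the Per1KO call was lost (adjusted p = 0.0762), and the Per2KO call was lost with protein-coding genes only (adjusted p = 0.0595) and with no filter on low counts (adjusted p = 0.0519). Its rise during differentiation had a difference between knockouts and WT of 0.77 ± 0.37 (adjusted p = 0.260).

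Myom1 stood at 7.47, 180 and 285 CPM in WT, at 0.952, 114 and 296 CPM in Per1KO, and at 0.609, 108 and 219 CPM in Per2KO. The knockouts were far below WT on day 0, and on day 5 Per1KO had reached it, with a ratio of 1.04 (0.980 to 1.10). Over 3 days the log2 fold change was -0.98 ± 0.55 (adjusted p = 0.251) in Per1KO and -1.29 ± 0.55 (adjusted p = 0.143) in Per2KO, and neither passed. Its rise was larger in the knockouts by 2.84 ± 0.37 (adjusted p = 0.0123). Myom1 shares 207 exon bases with Myl12a on the opposite strand, a gene at 667 to 1469 CPM, and whether the authors' counting used strand is not stated.

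Myom3 stood at 6.77, 151 and 412 CPM in WT, at 0.526, 77.5 and 246 CPM in Per1KO, and at 0.216, 65.3 and 171 CPM in Per2KO. WT was highest on each day, and the day 0 values of the knockouts rest on 26 and 11 counts. Relative to WT, Myom3 went from 0.0778 (0.0463 to 0.128) on day 0 to 0.598 (0.569 to 0.628) on day 5 in Per1KO. In Per2KO it went from 0.0319 (0.0150 to 0.0624) to 0.415 (0.394 to 0.436). The log2 fold change over 3 days was -1.50 ± 0.58 (adjusted p = 0.113) in Per1KO and -1.95 ± 0.59 (adjusted p = 0.0545) in Per2KO. Myom3 passed as lower in Per2KO by DESeq2 (-2.52, adjusted p = 0.0121), and without day 0 edgeR called it lower in Per1KO (-0.86, adjusted p = 0.00798) and Per2KO (-1.24, adjusted p = 0.00265). Its rise was larger in the knockouts by 3.17 ± 0.35 (adjusted p = 0.00853).

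Within the myomesins, Myom2 made up most of the transcripts per length in every library, and its share went down with time. In WT the Myom2 share was 82.9%, 74.8% and 69.9% on days 0, 3 and 5. In Per1KO it was 92.7%, 75.9% and 67.7%, and in Per2KO 97.5%, 76.8% and 70.6%. The populations stood furthest apart on day 0, where the knockout shares of Myom1 and Myom3 rest on 11 to 47 counts, and closer together on days 3 and 5. On day 5 the ratio of Myom3 to Myom1 per length was 1.46 (1.36 to 1.57) in WT, 0.843 (0.821 to 0.865) in Per1KO and 0.790 (0.765 to 0.815) in Per2KO. WT alone had more Myom3 than Myom1 per length. That order depends on the length used, since with the union of annotated exons the ratio was 2.50, 1.44 and 1.35, above 1 in all 3, while the order of the populations does not depend on it.

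**Figure D3:**
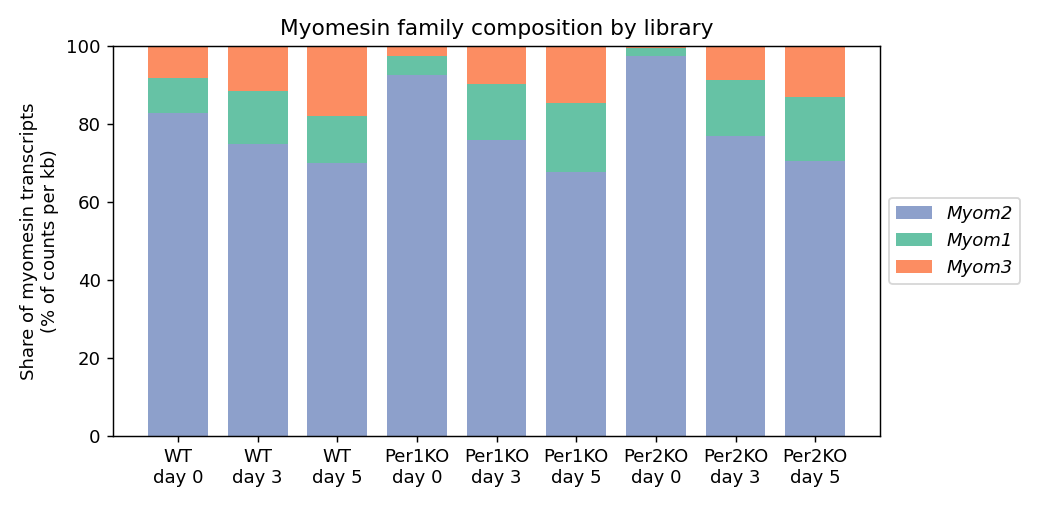
Composition of the myomesin family by library, as the percent of counts per kilobase from Myom2, Myom1 and Myom3, with 1 library per bar. The Myom2 share goes from 82.9% to 69.9% in WT, from 92.7% to 67.7% in Per1KO and from 97.5% to 70.6% in Per2KO.

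Obsl1 encodes a protein that binds titin and myomesin at the M-band and is also made outside muscle. It lies at chr1:75479310-75506452 on the reverse strand. It stood at 58.9, 244 and 302 CPM in WT, at 55.4, 131 and 282 CPM in Per1KO, and at 39.4, 117 and 209 CPM in Per2KO. On day 0 the level in Per1KO lay close to that of WT, Per2KO was lower, and the widest gap between WT and both knockouts came on day 3. The ratio to WT in Per1KO was 0.939 (0.847 to 1.04) on day 0, 0.535 (0.504 to 0.567) on day 3 and 0.933 (0.882 to 0.987) on day 5. In Per2KO it was 0.668 (0.601 to 0.744), 0.478 (0.450 to 0.507) and 0.692 (0.653 to 0.733). Obsl1 fell in Per2KO, with a log2 fold change of -0.74 ± 0.17 (adjusted p = 0.0202), and in Per1KO the estimate was -0.37 ± 0.17 (adjusted p = 0.165). It rose the least of the 9 by day 5, 5.13-fold in WT, 5.09-fold in Per1KO and 5.31-fold in Per2KO, and its rise had a difference between knockouts and WT of -0.33 ± 0.29 (adjusted p = 0.543).

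Mybpc1 encodes the slow-type myosin-binding protein C and lies at chr10:88518279-88605152 on the reverse strand. On day 0 it had 3 counts in WT and 0 in each knockout, where the floor of 3 counts is 0.0607 CPM in Per1KO and 0.0590 CPM in Per2KO. On days 3 and 5 it stood at 43.7 and 175 CPM in WT, at 8.04 and 43.1 CPM in Per1KO, and at 7.50 and 32.8 CPM in Per2KO. WT was several times higher than both knockouts on both days. The ratio to WT was 0.184 (0.156 to 0.217) on day 3 and 0.246 (0.226 to 0.267) on day 5 in Per1KO, and 0.172 (0.145 to 0.203) and 0.187 (0.171 to 0.204) in Per2KO.

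Mybpc1 fell in both knockouts, with estimates of -2.29 ± 0.29 (log2) in Per1KO (adjusted p = 0.00156) and of -2.54 ± 0.29 in Per2KO (adjusted p = 0.00104). These were the lowest estimates of the 9 genes over all 3 days, and without day 3 or without day 5 those of Mybph were lower in both knockouts. From day 0 to day 5 it rose at least 709.9-fold in Per1KO and at least 557-fold in Per2KO, taking 3 counts per library as the floor on day 0, and the exact 95% counting intervals of these ratios begin at 577 and 452. In WT the ratio of day 5 to day 0 was 415 with a counting interval of 141 to 2015, because the day 0 value is 3 counts. Between days 3 and 5 Mybpc1 rose by 2.19 ± 0.24 (adjusted p = 0.00572) by edgeR. That call was lost by DESeq2 (adjusted p = 0.153), without Per1KO (adjusted p = 0.174) and without Per2KO (adjusted p = 0.102). In each of the last 2 fits 0 of all tested genes were called between these days.

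Mybpc2 encodes the fast-type myosin-binding protein C and lies at chr7:44501699-44524656 on the reverse strand. It had 0 counts in WT and 1 count in each knockout on day 0. On days 3 and 5 it stood at 7.65 and 18.4 CPM in WT, at 4.57 and 30.96 CPM in Per1KO, and at 4.11 and 17.7 CPM in Per2KO. Both knockouts were below WT on day 3, and on day 5 Per1KO was above it. The ratio to WT on day 5 was 1.68 (1.35 to 2.12) in Per1KO and 0.960 (0.765 to 1.22) in Per2KO, on 84 counts in WT. Over 3 days the log2 fold change was 0.07 ± 0.32 (adjusted p = 0.887) in Per1KO and -0.44 ± 0.33 (adjusted p = 0.374) in Per2KO. Between days 3 and 5 Mybpc2 rose by 2.13 ± 0.26 (adjusted p = 0.00864), a call lost without Per1KO (adjusted p = 0.215) and without Per2KO (adjusted p = 0.152). Those 2 fits called 0 of all tested genes.

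The balance of slow-type to fast-type protein C transcripts therefore differed between WT and both knockouts. Per length, the ratio of Mybpc1 to Mybpc2 was 5.26 (3.78 to 7.49) on day 3 and 8.76 (6.99 to 11.1) on day 5 in WT. In Per1KO it was 1.62 (1.37 to 1.92) and 1.28 (1.19 to 1.38), and in Per2KO 1.68 (1.41 to 2.01) and 1.71 (1.56 to 1.87). The counting intervals of WT did not overlap those of either knockout on either day. These ratios too have 1 library each and no test, and Mybpc2 in WT rests on 42 counts on day 3 and 84 on day 5. Mybpc1 held 89.8% of the 2 transcripts per length in WT on day 5, 56.2% in Per1KO and 63.1% in Per2KO. The third gene of the family, the cardiac-type Mybpc3, stood at no more than 1.20 CPM in any library.

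Mybph encodes myosin-binding protein H, a shorter relative of protein C, and lies at chr1:134193448-134201232 on the forward strand, 88.8 kb from the myogenin gene Myog. It stood at 59.8, 1733 and 2175 CPM in WT, at 4.05, 911 and 1711 CPM in Per1KO, and at 2.12, 815 and 1331 CPM in Per2KO on days 0, 3 and 5. WT was highest on each day, and the knockouts came closer to it from day to day. The ratio to WT in Per1KO was 0.0677 (0.0570 to 0.0803) on day 0, 0.526 (0.514 to 0.538) on day 3 and 0.787 (0.770 to 0.803) on day 5. In Per2KO it was 0.0355 (0.0285 to 0.0440), 0.470 (0.460 to 0.481) and 0.612 (0.599 to 0.626).

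The log2 fold change of Mybph over 3 days was -1.93 ± 0.80 (adjusted p = 0.134) in Per1KO and -2.28 ± 0.82 (adjusted p = 0.0908) in Per2KO, and neither passed. Fitted without day 0 it was called lower in Per2KO (-0.91, adjusted p = 0.0205). Its rise was larger in the knockouts by 3.55 ± 0.32 (adjusted p = 0.00624), the largest such difference among the members called. From day 0 to day 5 the rise was 36.4-fold (33.0 to 40.2) in WT, 422-fold (368 to 488) in Per1KO and 627-fold (519 to 765) in Per2KO. Myog, which encodes the myogenic factor myogenin, moved beside it: it stood at 124, 866 and 1059 CPM in WT, at 5.35, 261 and 351 CPM in Per1KO, and at 2.91, 226 and 270.2 CPM in Per2KO. The part of Myog in these differences was not tested. Adora1 on the opposite strand shares 1162 exon bases, 49.9% of Mybph exons, and stood at no more than 15.01 CPM in any library, so the level of Mybph may depend on how the authors' counting treated reads in that stretch, which is not stated.

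Differences of each knockout population from WT were tested in a model with genotype and day as additive terms over all 9 libraries, so that the days of a population serve as its replicates. Depth, lane and genotype cannot be told apart in these calls, so they compare populations as labelled. In Per1KO 2 of 9 members passed as lower (Mybpc1 and Myom2) and 0 as higher, where 10.1% of all tested genes were called lower, 9.26% higher and 19.3% in either direction. In Per2KO 4 of 9 passed as lower (Mybpc1, Neb, Myom2 and Obsl1) and 0 as higher, where 10.6% were called lower, 9.31% higher and 19.9% in either direction. The median log2 fold change of the 9 was -0.998 in Per1KO and -1.29 in Per2KO, beside -0.02 and -0.01 over all tested genes. Without day 0 the members called were 5 in Per1KO (1 higher, 4 lower) and 7 in Per2KO (1 higher, 6 lower). Without day 3, or without day 5, 0 passed in either knockout with edgeR, with 4 to 7 members at an unadjusted p under 0.05. The number of all tested genes called moved the same way in both knockouts. It was larger without day 0 than in the full fit, and smaller without day 3 or without day 5.

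**Figure D4:**
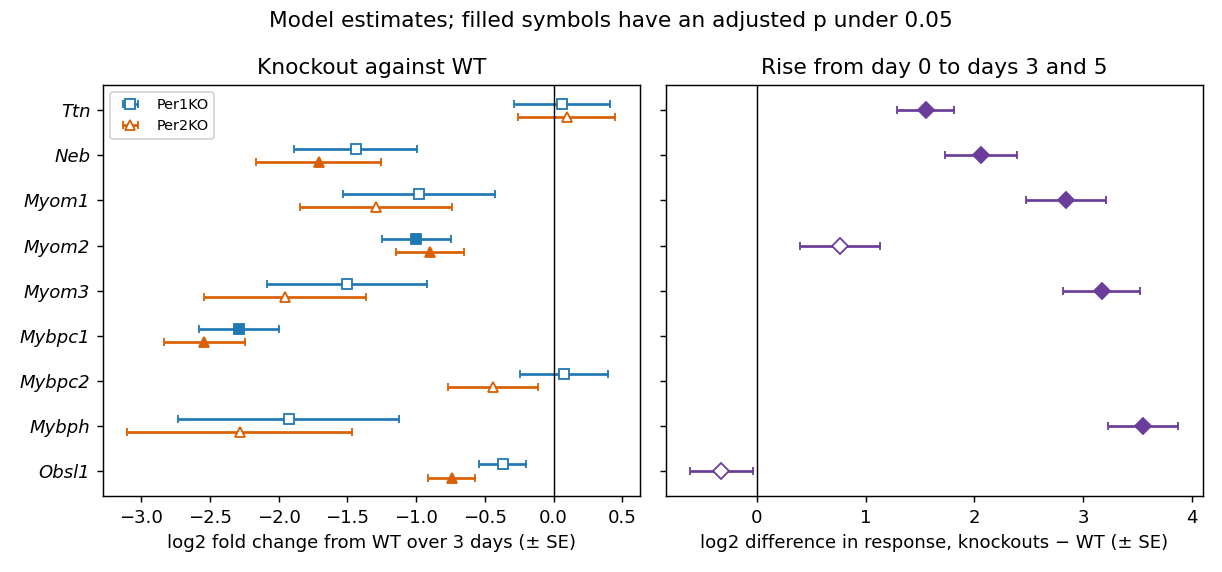
Estimates from the fitted models on the log2 scale with standard errors. On the left is each knockout against WT over 3 days, and on the right the difference between knockouts and WT in the rise from day 0 to days 3 and 5, where Mybpc1 and Mybpc2 are left out because their day 0 counts are at or below 3. Filled symbols have an adjusted p under 0.05: Mybpc1 and Myom2 in both knockouts, Neb and Obsl1 in Per2KO, and 5 genes on the right.

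By single days, which have no replicate check, 22 of the 54 differences from WT were at least 2-fold lower and 0 at least 2-fold higher. Of all tested genes, 7.87%, 8.86% and 9.52% were at least 2-fold higher in Per1KO on days 0, 3 and 5, and 7.94%, 9.16% and 9.73% in Per2KO. On day 0 the members at least 2-fold lower were 6 of 9 in Per1KO and 7 of 9 in Per2KO, Mybpc1 among them on 0 counts against 3, where 8.68% and 9.29% of tested genes were at least 2-fold lower. On day 3 they were 1 of 9 and 4 of 9, beside 7.67% and 8.46% of tested genes. On day 5 they were 1 of 9 and 3 of 9, beside 9.1% and 9.07% of tested genes. Mybpc1 was at least 2-fold lower in both knockouts on days 3 and 5, and Myom3 in Per2KO on every day. The differences above WT during differentiation were those of Ttn in both knockouts on days 3 and 5, and of Mybpc2 and, by a ratio of 1.04, Myom1 in Per1KO on day 5.

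**Figure D5:**
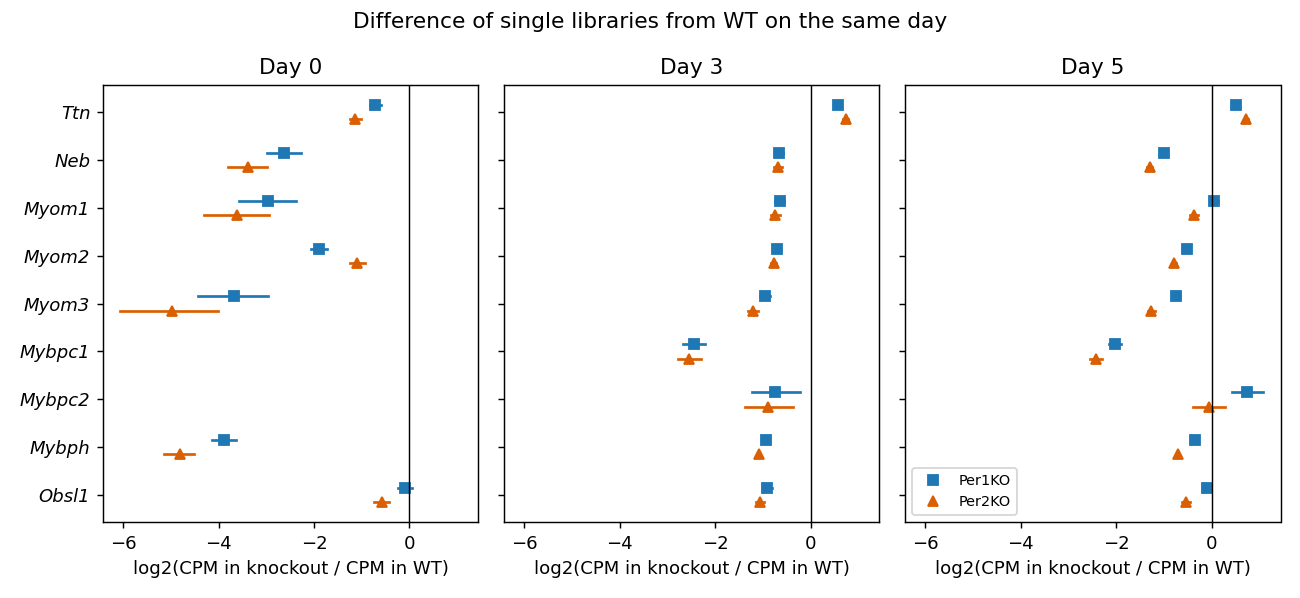
Log2 ratio of CPM in each knockout library to the WT library of the same day, with exact 95% counting intervals. Ratios with a count of 0 or 1 on day 0 (Mybpc1 and Mybpc2) are not drawn. On day 0 all drawn points lie below 0, and on days 3 and 5 the Ttn points of both knockouts lie above 0.

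Whether the response to differentiation differed was tested with 1 interaction term, either knockout by day 3 or 5. In 5 of 9 members (Ttn, Neb, Mybph, Myom1 and Myom3) the rise was larger in the knockouts, where 3.5% of all tested genes were called in that direction and 4.95% in either. For Mybpc1 and Mybpc2, at no more than 3 counts in each day 0 library, the fitted term depends on the prior count and is not given. Neither Myom2 nor Obsl1 passed. Because the term is a difference of differences, it holds the low day 0 levels of the knockouts: for Neb, Mybph, Myom1 and Myom3 the knockouts stayed below WT on day 3, and Ttn was above it.

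The 2 knockouts were then compared with each other. By edgeR over all 9 libraries 0 of 9 members passed, with 0 at an unadjusted p under 0.05 and 0 by DESeq2, and 0% of all tested genes were called by edgeR. With only the 6 knockout libraries in the edgeR fit, 0 members and 0 of all tested genes passed, while 5 members had an unadjusted p under 0.05. The estimate was higher in Per1KO for 7 of 9, with a median log2 fold change of 0.31. The SE of these differences ran from 0.17 for Obsl1 to 0.71 for Mybph. On day 5 the single libraries differed beyond counting error for each of the 9: Ttn was lower in Per1KO with a ratio of 0.858 (0.848 to 0.867), and the other 8 were higher, from 1.22 (1.20 to 1.24) for Myom2 to 1.75 (1.60 to 1.92) for Mybpc2. On day 0 Myom2 was the exception, at a ratio of 0.577 (0.530 to 0.629) between Per1KO and Per2KO.

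Genes related to titin or nebulin were described from lists drawn up with earlier results of these data known. Of 9 relatives and giant kinases of the sarcomere, 6 were tested. Among them 0 were called higher and 2 lower in Per1KO (Speg and Nrap), and 0 higher and 3 lower in Per2KO (Speg, Nrap and Igfn1), beside 10.1% and 10.6% of all tested genes called lower. Nrap, a nebulin-related anchoring protein of nascent myofibrils, stood at 14.8, 78.0 and 239 CPM in WT on days 0, 3 and 5, at 8.56, 47.8 and 80.9 CPM in Per1KO, and at 11.0, 42.4 and 71.0 CPM in Per2KO. Its log2 fold change was -1.07 ± 0.24 (adjusted p = 0.0181) in Per1KO and -1.06 ± 0.24 (adjusted p = 0.0184) in Per2KO, lower on every day in both.

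Of 14 ligands of titin, all tested, 11 rose from day 0 to day 5 and 1 fell, Smyd2, where 23.2% of tested genes rose and 22.9% fell. In each knockout 1 was called higher than WT, Fhl2, where 9.26% of tested genes were in Per1KO and 9.31% in Per2KO. In each, 4 were called lower, Tcap, Capn3, Ankrd23 and Trim63, where 10.1% and 10.6% of tested genes were. Fhl2, a LIM-domain protein that binds titin, stood at 81.9, 63.4 and 62.4 CPM in WT, at 91.4, 138 and 136 CPM in Per1KO, and at 112, 144 and 162 CPM in Per2KO. It was higher in both knockouts on every day, by 0.78 ± 0.21 in Per1KO (adjusted p = 0.0347) and 0.98 ± 0.21 in Per2KO (adjusted p = 0.0143). Capn3, the muscle calpain anchored on titin, stood at 29.1 and 39.1 CPM in WT on days 3 and 5, at 15.5 and 16.8 CPM in Per1KO, and at 14.5 and 15.3 CPM in Per2KO. Its log2 fold change in Per1KO was -0.92 ± 0.17 (adjusted p = 0.00860). Trim63, a ubiquitin ligase that binds titin near the M-band, fell in Per2KO, with a log2 fold change of -1.02 ± 0.24 (adjusted p = 0.0223). Ankrd2, a stretch-responsive ankyrin protein, rose from no more than 1.13 CPM on day 0 to 35.9 to 52.9 CPM on day 5.

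Of the 8 tested genes listed for nebulin and thin filaments, 8 rose from day 0 to day 5, where 23.2% of all tested genes did. In Per1KO 0 were called higher and 3 lower (Tmod1, Klhl40 and Klhl41), and in Per2KO 0 higher and 6 lower (those 3 with Lmod2, Lmod3 and Xirp1), beside 10.1% and 10.6% of tested genes called lower. Klhl41, a kelch protein that stabilises nebulin, stood at 24.0, 561 and 689 CPM in WT, at 3.89, 151 and 351 CPM in Per1KO, and at 1.85, 141 and 254 CPM in Per2KO. It was below WT on every day in both, with estimates of -1.85 ± 0.38 (log2; adjusted p = 0.0149) in Per1KO and of -2.31 ± 0.39 (adjusted p = 0.00615) in Per2KO. Lmod2, a leiomodin that nucleates actin and lengthens thin filaments, stood at 3.53, 133 and 226 CPM in WT, at 0.223, 47.7 and 125 CPM in Per1KO, and at 0.157, 49.8 and 90.2 CPM in Per2KO. Its rise was larger in the knockouts by 2.93 ± 0.47 (adjusted p = 0.0219), where day 0 rests on 11 counts in Per1KO and 8 in Per2KO.

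Among 6 listed genes for myosin chaperones and small heat shock proteins, Hsp90aa1 was higher in both knockouts, by 0.83 ± 0.15 in each (adjusted p = 0.00675 in Per1KO and 0.00671 in Per2KO). Smyd1, Hspb2 and Hspb3 were lower in both, and Unc45b, the myosin chaperone that works with Hsp90, was called lower in Per2KO, with a log2 fold change of -2.44 ± 0.67 (adjusted p = 0.0413). Its day 0 level in Per2KO rests on 9 counts. Of these 6 genes 1 was called higher in each knockout, beside 9.26% of all tested genes in Per1KO and 9.31% in Per2KO. Called lower were 3 of 6 in Per1KO, beside 10.1%, and 4 of 6 in Per2KO, beside 10.6%. Of the 7 tested myogenic regulators, Myog fell in both knockouts, with estimates of -2.80 ± 0.72 (log2; adjusted p = 0.0325) in Per1KO and of -3.18 ± 0.73 (adjusted p = 0.0217) in Per2KO, and Mef2c fell in Per2KO. As a list, the regulators had 1 of 7 called lower in Per1KO, near the 10.1% of all tested genes, and 2 of 7 in Per2KO, beside 10.6%. The part of Myog, Mef2c or the chaperones in the levels of the 9 members was not tested.

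The 9 profiles were close to each other over the 9 libraries. The lowest Pearson correlation of log2 CPM between 2 members was 0.90, between Ttn and Obsl1, and the highest 0.998, between Neb and Myom3. The libraries share 3 populations, 3 days and the difference in depth, so these values describe the common rise and carry no test. Among 9571 genes that averaged 10 CPM or more, the profiles most like the mean of the 8 members other than Obsl1 were those of Lmod3 (0.999), Myl1 (0.998), Paxx (0.997), Rap1gap2 (0.997) and Reep1 (0.996). Dag1 (0.996) and Pja2 (0.995) were among the 3 closest to Ttn, and Dag1 stood at 420, 806 and 1081 CPM in WT, at 306, 1098 and 1496 CPM in Per1KO, and at 247, 1087 and 1372 CPM in Per2KO. Like Ttn, Dag1 was below WT in both knockouts on day 0 and above WT on days 3 and 5. Closest to Mybpc1 were Nrxn3, Cnot6l and Sh3bgr (0.998, 0.998 and 0.997), and closest to Obsl1 were Fam174a, Acsl6 and Inppl1 (0.991, 0.991 and 0.990).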

How the data were processed

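Poly(A) RNA of C2C12 cells was sequenced as single reads, per the labels' protocols, and the authors deposited 1 table of raw counts per Ensembl gene, with 47729 genes and 0 rows that name no gene. The submitters' processing notes name CASAVA 1.8, HISAT2 2.1.0 and mm10; the counting program and its use of strand are not given in the sources used here. Quasi-likelihood F tests were run on these counts in R 4.3.3 with edgeR 4.0.16 and limma 3.58.1, with TMM (trimmed mean of M values) scaling, on the 13324 genes that reached 1 CPM in 3 or more libraries, Benjamini-Hochberg adjusted over all of them and called at an adjusted p under 0.05. The additive model of genotype and day left 4 residual degrees of freedom and the interaction model 3. With 1 population per genotype and 1 library per day, p-values are set by the spread of these libraries around the model, which may be technical. In the additive model that spread also holds differences between populations that change with day. A gene whose difference from WT changes with day therefore has a larger SE there. Differences of single libraries used a prior count of 2 and carry no test.

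Symbols, positions and lengths came from GENCODE M21, which matched 47310 identifiers; the other 419 held at most 0.0174% of any library. Levels of different genes were compared per kilobase of the longest transcript. All 9 members were named; from each related list the called genes with the largest rise and fall per comparison were eligible for naming. The members, lists and tests were chosen with earlier results of these data known. The script was tested on simulated data. Alternatives were DESeq2 1.42.0 and its size factors, no filter, thinning to 5020385 counts, protein-coding genes only, leaving out a day or population, other lengths and a prior count of 0.5. Values of single genes in the related lists and among the most similar profiles are in part not reported here.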

Additional observations from a re-analysis of the deposited data

Results flagged for a closer look

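The rise from day 0 to days 3 and 5 differed between the knockouts and WT, by a test of the difference itself (edgeR's interaction term, adjusted p under 0.05), for 5 of the 9 members and, among the related lists, for Lmod2, Lmod3, Unc45b, Myog, Srf, Fhl2 and Trim54. On the log2 scale, knockouts minus WT, the difference was 1.55 for Ttn (adjusted p = 0.0244), 2.06 for Neb (adjusted p = 0.0215) and 2.84 for Myom1 (adjusted p = 0.0123). It was 3.17 for Myom3 (adjusted p = 0.00853) and 3.55 for Mybph (adjusted p = 0.00624). Ttn is the one of these 5 whose level in the knockouts was above WT on days 3 and 5.

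Among the related genes, those with the largest rise or fall of each list are given. The difference was 2.93 for Lmod2 (adjusted p = 0.0219), 3.91 for Unc45b (adjusted p = 0.0114), 3.14 for Myog (adjusted p = 0.00359) and 0.89 for Fhl2 (adjusted p = 0.0331). On day 0 Lmod2 had 25 counts in WT, 11 in Per1KO and 8 in Per2KO, and Unc45b had 51, 7 and 9, so these 2 differences rest on few counts. Trim54, a ubiquitin ligase that binds titin, had a smaller rise in the knockouts, with a difference of -1.22 (adjusted p = 0.0461). It stood at 5.36, 43.0 and 79.9 CPM in WT on days 0, 3 and 5, at 8.08, 24.1 and 58.9 CPM in Per1KO, and at 6.11, 20.6 and 40.2 CPM in Per2KO. These values all rest on 1 WT library of day 0, and cannot be told apart from the depth and lane that separate WT from the knockouts.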

How the results depend on the processing

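No called value changed sign under the alternatives run. Estimates near 0 that were not called did: leaving out a day gave -0.19 to 0.54 for Ttn in Per1KO against WT, -0.23 to 0.73 for Ttn in Per2KO, -0.71 to 0.73 for Mybpc2 in Per1KO, and, for Per1KO against Per2KO, -0.19 to 0.081 for Ttn (0.0089 with the 6 libraries compared) and -0.32 to 0.18 for Myom2. The knockout difference in the rise of Obsl1 was -0.65 to 0.013 without 1 day or population. That of Mybpc2, not reported above because it depends on the prior count, was -2.78 by edgeR and 0.16 by DESeq2. Of the alternative counts, 54 stayed within 1.5 times the count reported while 12 did not. Leaving out a day moved the members called against WT (2 in Per1KO and 4 in Per2KO) to 0 to 5 and to 0 to 7. The number of all tested genes called moved in the same direction in these fits. Fitting only the 6 libraries compared gave 1 member in Per1KO, and no filter on low counts gave 2 members in Per2KO. Of the members called on day 5 against day 3 (2), leaving out a population gave 0 to 8, 8 without WT and 0 without either knockout by edgeR (4 and 7 at an unadjusted p under 0.05), and DESeq2 gave 4, without Mybpc1. The cause was not tested. Without Per1KO, Mybph (adjusted p = 0.0766) and Myom3 (adjusted p = 0.0535) lost their call on day 3 against day 0. A prior count of 0.5 put Mybpc2 on day 0 at least 2-fold higher in both knockouts, on 1 count against 0. Shares within the myomesins moved most with the length used. Depth limits the day 0 values: the WT floor on day 0 is 0.423 CPM, and a level such as that of Myom3 in Per2KO (0.216 CPM) would lie below it. Myom3 in WT itself stood at 6.77 CPM on day 0, on 48 counts, above that floor. Populations are compared within days, since day is a term of the model. No paired analysis was possible because the labels give no replicate numbers, so there was no block beyond day.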
